A study of Cucumis sativus and Manihot esculenta and Brachypodium distachyon with 34 samples.

Results

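Gene body methylation (gbM) in plants is methylation of CG sites, without methylation at CHG or CHH sites, inside coding sequence, where H is any base but G. It is kept through cell division by a CG maintenance methyltransferase, falls away toward the start and end of transcription, and is best known from genes with steady, moderate expression across tissues. Genes with CHG or CHH methylation in the coding sequence, as transposons have it, are usually silent. Described here are the genes that depart from that pattern in Brachypodium distachyon, a small model grass: genes classified as gbM in leaf whose transcripts were scarce or not detected in leaf.

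The series compared DNA methylation across flowering plants in 34 samples, by bisulfite sequencing of leaf DNA (MethylC-seq) and, in some species, sequencing of RNA or small RNA. The B. distachyon material was leaf of the inbred line Bd21, with no treatment, and 1 RNA-seq library gave FPKM (fragments scaled to transcript length and to the mapped fragments of the library) for 31694 genes. With 1 library there was no replicate, so every share below is a description over genes, and its 95% Wilson interval covers counting error only, with genes taken as independent. The study's classification tested each coding sequence for methylated CG, CHG and CHH sites and called genes gbM, mCHG, mCHH or unmethylated (UM). In each context the test was against an expected rate pooled over the coding sequences of all species. A gbM gene passed for CG and not for CHG or CHH. The classes therefore mean passing or not passing that rate, and a gbM or UM gene may hold some methylation in a context it did not pass. The study also reports unexpressed genes with CG methylation, in some cases higher around the start of transcription. It found suppressed expression in genes with CG methylation over that start. These classes rest on coding sequence, so they do not set such genes apart. The part of that classification used here held 1999 genes, nearly all from the first stretch of chromosome 1.

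The 108 low-expressed gbM genes were chosen by their leaf FPKM, all those below 1 FPKM among 566 gbM genes, so their low level is not a finding. They made up 19.1% (16.1 to 22.5%) of gbM genes, and the other 458 gbM genes were at 1 FPKM or above. Below 1 FPKM lay 82.8% of the 169 mCHG genes, all 8 mCHH genes and 45.6% (42.9 to 48.4%) of the 1256 UM genes. Over all 1999 classified genes the share was 41.5%, and over all genes measured it was 48.2%. The median level was 7.01 FPKM in gbM genes, 0 in mCHG genes and 1.67 FPKM in UM genes. So gbM genes were the class with the smallest share of low-expressed genes, and the 108 described here were the minority of that class.

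**Figure D1:**
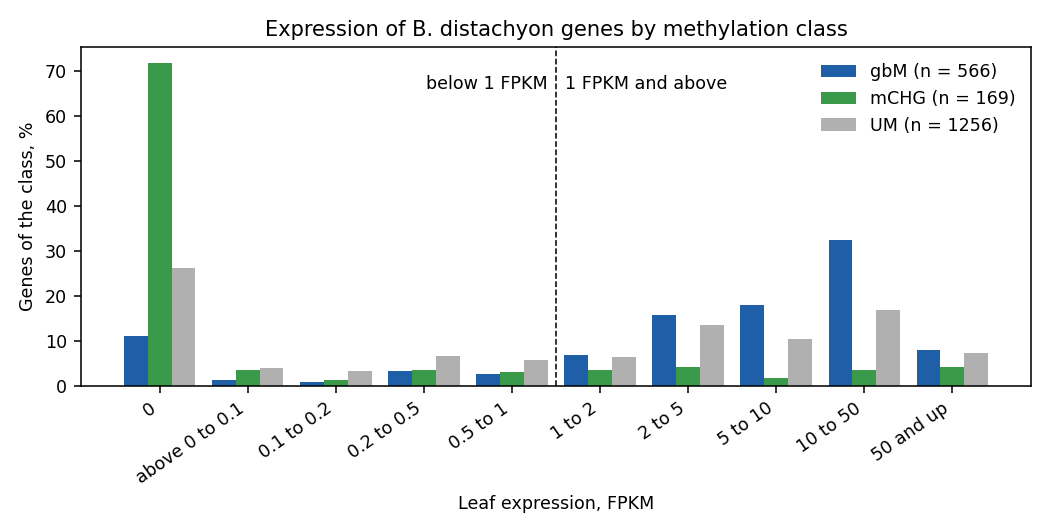
Share of the genes of each methylation class (vertical axis, %) in each range of leaf FPKM (horizontal axis, ranges of unequal width), for 566 gbM, 169 mCHG and 1256 UM genes; the dashed line marks 1 FPKM. gbM genes have a bar at 0 (11.1%), few genes between 0 and 1 FPKM, and most genes above 2 FPKM.

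More of the 108 genes were listed at 0 than at any low level above it. The table listed 63 of them at 0 FPKM, which is 58.3% (48.9 to 67.2%) of the 108 and 11.1% of all gbM genes. The study states a read total and a mapped share for the library, but the table holds no fragment counts per gene, so no detection limit was set for a listed 0. A listed 0 can also be a failed estimate, and these genes are not shown to be silent. Among mCHG genes below 1 FPKM 86.4% (79.8 to 91.1%) were listed at 0, among UM genes below 1 FPKM 57.4% (53.3 to 61.4%), and among all genes of the table below 1 FPKM 59.0%. With expressed genes counted too, genes at 0 were 25.9% of the classified genes and 28.5% of all genes measured, beside the 11.1% of gbM genes. Once below 1 FPKM, then, a gbM gene was listed at 0 about as often as a UM gene or a gene of the table at large, and less often than an mCHG gene by intervals that did not overlap.

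The 45 low gbM genes above 0 ran between 0.0269 and 0.985 FPKM, with a median of 0.393 and quartiles of 0.185 and 0.826. The 19 mCHG genes and the 244 UM genes in that range had medians of 0.237 and 0.294 FPKM. Within gbM, 7 genes lay above 0 and below 0.1 FPKM, 5 between 0.1 and 0.2, 18 between 0.2 and 0.5, and 15 between 0.5 and 1. Above the threshold, 39 gbM genes lay between 1 and 2 FPKM and 89 between 2 and 5. Thus the low gbM genes were a group at 0 and 45 genes spread above it, which ran on past the threshold without a gap. These ranges are of unequal width, so their counts do not give the shape of the spread.

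The genes just inside the threshold were Bradi1g14510 at 0.985 FPKM, Bradi1g15820 at 0.953, Bradi1g14070 at 0.946, Bradi1g09310 at 0.939 and Bradi1g12067 at 0.914. Just outside it lay Bradi1g08080 at 1.01 FPKM, Bradi1g00485 at 1.10, Bradi1g09560 at 1.11, Bradi1g02123 at 1.16 and Bradi1g11397 at 1.19. The table enters each gene by 1 transcript, whose number follows a dot. Of the 5 inside, 4 were entered by a transcript other than number 1, and of the 5 outside, 0 were. These are 10 genes picked by rank, and over all genes the contrast was smaller, at 36.1% of the 108, 23.4% of the other gbM genes and 16.2% of the whole table. Nothing in the files pairs these identifiers with a gene name or product, so the function of the 108 genes and the leaf markers of the library were not analysed here.

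Of the 108 genes, 107 were on chromosome 1 and 1 on a scaffold. Position was read from the identifiers, whose numbers are taken to follow gene order along the chromosome, because the table holds no coordinates. Strand, overlap and the distance in bases to a neighbour were therefore not measured. The classified stretch spanned 1995 consecutive genes of the table, 21.7% of the 9196 on chromosome 1, so nothing is said of the rest of the genome. The scaffold gene, Bradi0022s00400, was listed at 0, and it was 1 of 3 gbM genes among 12 classified scaffold genes.

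Low gbM genes were found all along the stretch. When its classified genes were divided in identifier order into 10 bins of 198 or 199, every bin held between 5 and 17 of them. The share of gbM genes below 1 FPKM ran between 8.33% (3.61 to 18.1%; 5 of 60) in the third bin and 28.6% (18.4 to 41.5%; 16 of 56) in the first. The third bin was also the one bin with none of its low gbM genes at 0, against 12 of 16 at 0 in the first. Among UM genes the share per bin ran between 37.0 and 53.6%. In each bin it was higher than the gbM share. Among gbM genes the intervals of the first and the third bin fell just short of overlapping (limits of 18.4 and 18.1%), and those of every other pair of bins overlapped. These were the highest and the lowest of 10 bins, and the intervals make no allowance for picking that pair. A difference along the stretch was not tested.

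**Figure D2:**
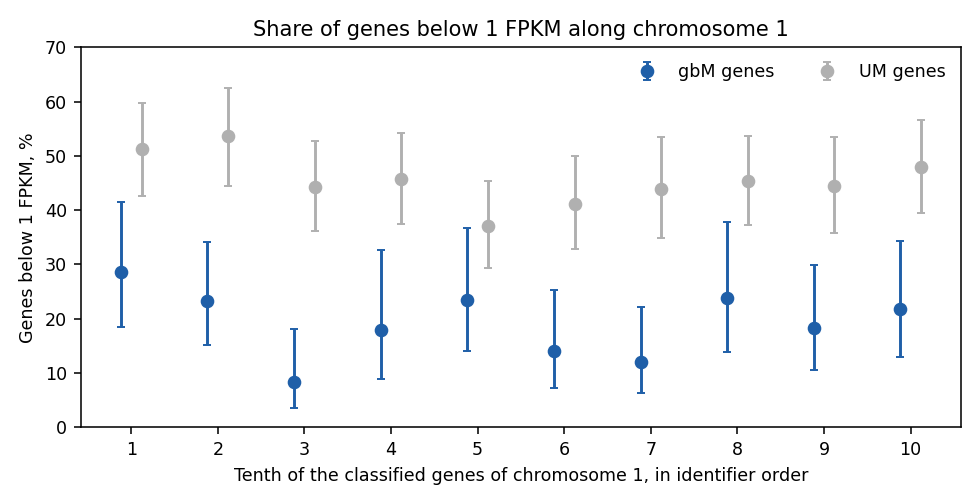
Share of genes below 1 FPKM (vertical axis, %) in 10 bins of classified genes in identifier order along the first stretch of chromosome 1 (horizontal axis), for gbM and UM genes; bars are 95% Wilson intervals over genes. The gbM points run between 8.33 and 28.6%, each below the UM point of the same bin.

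The 107 genes on chromosome 1 were mostly scattered singly. The median step between one and the next was 13 genes, and the largest, after Bradi1g05380 and before Bradi1g05880, was 102 genes. Low gbM genes took 5.56% of the nearest-neighbour places of other low gbM genes (12 of 216) and 6.24% of those of the gbM genes at 1 FPKM or above (57 of 914), beside 5.36% of all genes in the stretch. So they were beside one another at close to their share of all genes in the stretch.

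Adjacent low gbM genes numbered 11, in 4 pairs and 1 run of 3. The run held Bradi1g01387 at 0, Bradi1g01397 at 0.453 and Bradi1g01407 at 0.890 FPKM. It began after the UM gene Bradi1g01377 at 3.11 FPKM and ended before the gbM gene Bradi1g01420 at 22.4 FPKM. Both genes were listed at 0 in the pairs Bradi1g00266 with Bradi1g00272, Bradi1g05247 with Bradi1g05260, and Bradi1g14971 with Bradi1g14976. In the fourth pair Bradi1g05890 was at 0.0888 and Bradi1g05895 at 0.205 FPKM. Bradi1g05247 stood directly after a UM gene at 33.2 FPKM.

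The genes on either side of the 108 were expressed at ordinary levels for this stretch. Their 216 nearest neighbours had a median of 2.48 FPKM (95% interval 1.23 to 3.34). The median was 3.09 FPKM (2.30 to 3.79) beside the gbM genes at 1 FPKM or above, 0.804 beside mCHG genes below 1 FPKM and 1.45 (0.966 to 1.95) beside UM genes below 1 FPKM. It was 2.39 FPKM beside classified genes of every class. Of the neighbours of low gbM genes 41.7% (35.3 to 48.3%) were themselves below 1 FPKM. That share was 38.4% (35.3 to 41.6%) beside the other gbM genes, 52.0% (46.1 to 57.8%) beside low mCHG genes and 47.4% (44.5 to 50.3%) beside low UM genes. The intervals of low gbM and other gbM genes overlapped, for the median and for the share. Those of low gbM genes also overlapped those of low UM and low mCHG genes in both measures. The interval of the median beside low mCHG genes was 0.237 to 1.69 FPKM.

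Counted per gene, 74 of the 108 low gbM genes (68.5%, 59.3 to 76.5%) had at least 1 nearest gene below 1 FPKM, against 283 of 458 (61.8%, 57.3 to 66.1%) of the other gbM genes. The share was 64.7% over all classified genes and 71.6% over the whole table. The intervals of the low and the other gbM genes overlapped, and with identifiers in steps of 10 only the order turned round, to 61.2% in low gbM genes and 62.7% in the other gbM genes. Both nearest genes were below 1 FPKM for 14.8% of the low gbM genes, 14.9% of the other gbM genes, 29.5% of low mCHG genes and 23.2% of low UM genes. Over all classified genes that share was 18.1%, so the value for low gbM genes was near that of the stretch. Low gbM genes at 0 had 41.3% of neighbours below 1 FPKM, and those above 0 had 42.2%.

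Farther out the picture was the same. At each distance of 1 to 10 genes, between 41.3 and 46.7% of the neighbours of low gbM genes were below 1 FPKM, against 37.7 to 45.7% around the other gbM genes and 39.6 to 47.4% around low UM genes. The share was higher around low gbM genes than around the other gbM genes at 9 of 10 distances, and at each distance their intervals overlapped. The same genes recur at several distances, so these are not separate observations.

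**Figure D3:**
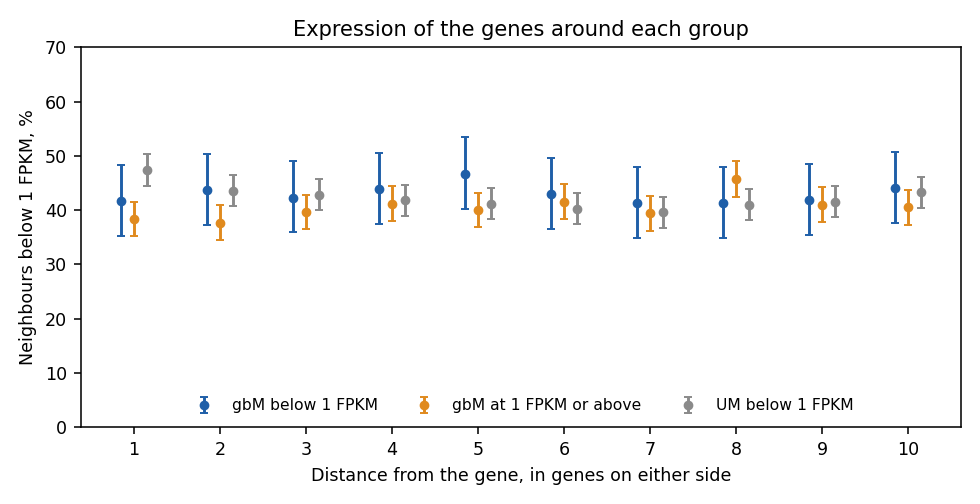
Share of neighbouring genes below 1 FPKM (vertical axis, %) at 1 to 10 genes on either side (horizontal axis) of gbM genes below 1 FPKM, gbM genes at 1 FPKM or above and UM genes below 1 FPKM; bars are 95% Wilson intervals over neighbours. All points of the low gbM genes lie between 41.3 and 46.7%.

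In methylation class, too, the neighbours resembled those of other genes in the stretch. Of 215 classified neighbours of low gbM genes 32.1% were gbM, 7.44% mCHG, 60.5% UM and 0 mCHH. Beside the gbM genes at 1 FPKM or above 30.1% were gbM and 7.11% mCHG. Low mCHG genes had 24.9% gbM and 13.4% mCHG neighbours. Over all classified genes 28.4% of neighbours were gbM, 8.29% mCHG and 62.9% UM, so the neighbours of low gbM genes were close to those of the stretch as a whole.

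Several low gbM genes stood directly beside strongly expressed genes, on one side or both. Bradi1g06440, listed at 0, lay between the UM genes Bradi1g06435 at 484 FPKM and Bradi1g06450 at 348 FPKM. Bradi1g08917, also at 0, lay between gbM genes at 164 and 51.3 FPKM. Bradi1g15440 at 0 had UM neighbours at 18.8 and 264 FPKM, and Bradi1g12290 at 0 had a UM neighbour at 44.1 and a gbM neighbour at 48.9 FPKM. Bradi1g06900 at 0 followed Bradi1g06890, a UM gene at 1628.3 FPKM, and preceded an mCHG gene at 0. Bradi1g09310 at 0.939 FPKM followed Bradi1g09300 at 1580.6 FPKM, and its other neighbour, Bradi1g09320, was at 3.13 FPKM. In all, 8 of the 108 (7.41%) had 10 FPKM or more on both sides, against 45 of 458 (9.83%) of the other gbM genes. Of these 8 genes 7 were at 0, beside 58.3% of all 108, and 8 genes are too few for a comparison. For both sides, the share over all genes was not computed. At least 1 neighbour at 10 FPKM or more was present for 45.4% of the 108 and 48.3% of the other gbM genes. That share was 46.0% over all classified genes and 40.2% over the whole table, so such neighbours were ordinary. It was 41.3% for low gbM genes at 0 and 51.1% for those above 0.

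Low gbM genes differed from the other gbM genes in how the table enters them. A transcript other than number 1 entered 39 of the 108 (36.1%, 27.7 to 45.5%), number 2 in 33 genes and number 3 in 6. It entered 107 of the 458 gbM genes at 1 FPKM or above (23.4%, 19.7 to 27.4%, an interval that did not overlap), 8.57% of low mCHG genes and 12.7% of low UM genes. In the whole table the order was the other way round, with 12.6% of genes below 1 FPKM and 19.5% of genes at or above it. Whether a listed FPKM belongs to the named transcript alone or to the gene is not stated. Low expression of the gene and low use of 1 of its transcripts therefore cannot be told apart for these 39 genes. The same limit holds for the 69 low gbM genes entered by transcript 1.

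The number in the identifier gave a further difference. Most gene numbers run in steps of 10, and 41 of the 108 low gbM genes (38.0%, 29.4 to 47.4%) had a number between these steps, against 80 of the 458 other gbM genes (17.5%, 14.3 to 21.2%). The share was 75.7% in low mCHG genes, and 43.8% in UM genes below 1 FPKM against 25.2% in UM genes at or above it. In the whole table it was 54.3% (53.5 to 55.1%) below 1 FPKM and 24.3% at or above it. Over all genes of the table it was 38.7%, and over all classified genes 33.7%. So the share in low gbM genes was near that of all genes and below that of low-expressed genes in general. The other gbM genes had the smaller share. At least 1 of the features was present in 72 low gbM genes (66.7%), with 8 genes carrying both, against 36.2% of the other gbM genes. It was 64.2% of all genes of the table below 1 FPKM and 51.0% of the whole table. The low gbM genes were close to low-expressed genes in general only with the features pooled. Taken singly, the features differed in opposite directions. Entry by another transcript was more frequent in low gbM genes (36.1 against 12.6%), and a number between steps was less frequent (38.0 against 54.3%).

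**Figure D4:**
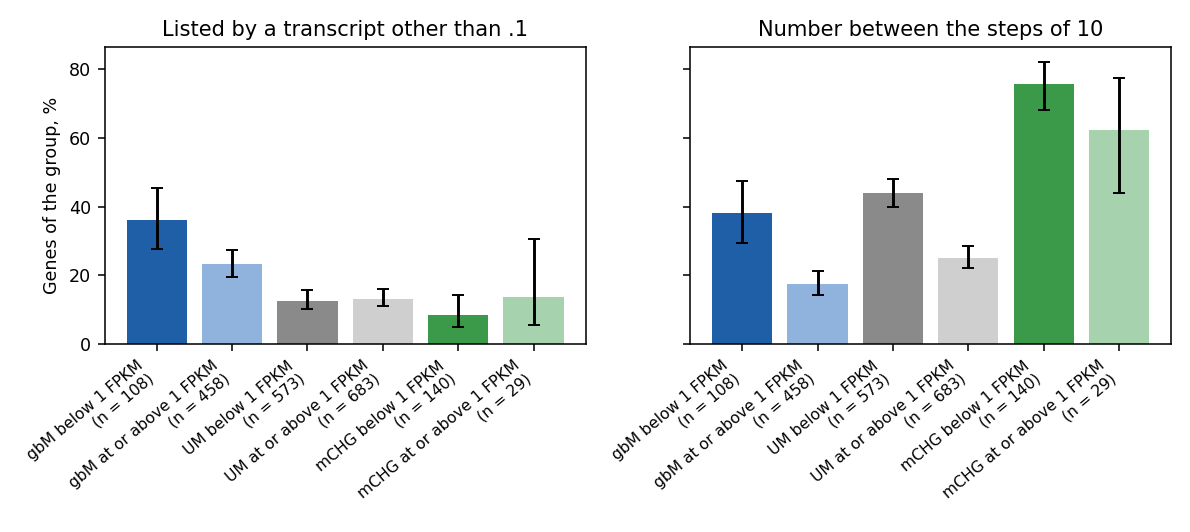
Share of genes (vertical axes, %) entered by a transcript other than number 1 (left) and with a gene number between the steps of 10 (right), for gbM, UM and mCHG genes below 1 FPKM and at or above it; bars are 95% Wilson intervals over genes. The low gbM bar is the tallest on the left (36.1%), and on the right (38.0%) it is above the other gbM genes (17.5%).

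Read the other way, the share of gbM genes below 1 FPKM differed with the kind of identifier. It was 11.0% (8.03 to 14.8%; 36 of 328) for numbers in steps of 10 entered by transcript 1, the most ordinary kind. It was 26.5% (19.3 to 35.1%; 31 of 117) for steps of 10 entered by another transcript and 35.9% (26.8 to 46.1%; 33 of 92) for numbers between steps entered by transcript 1. Genes with both features gave 27.6% (8 of 29). By transcript number alone the share was 16.4% (69 of 420, 13.2 to 20.3%) for number 1 and 30.8% (33 of 107, 22.9 to 40.1%) for number 2. It was 15.4% (6 of 39, 7.25 to 29.7%) for number 3 or more, an interval that overlapped both others. In the whole table the shares were 50.3, 44.1 and 15.8%, so number 2 was not above number 1 there, and number 3 or more was the lowest. For UM genes the same 4 kinds gave 37.8, 43.4, 60.3 and 48.6%, so gbM genes had the smaller share below 1 FPKM in each kind. Among gene numbers between steps, those ending in 7 stood apart: 13 of 68 such gbM genes (19.1%) were below 1 FPKM, against 28 of 53 (52.8%) with another ending. In the whole table these shares were 39.4 and 76.3%.

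**Figure D5:**
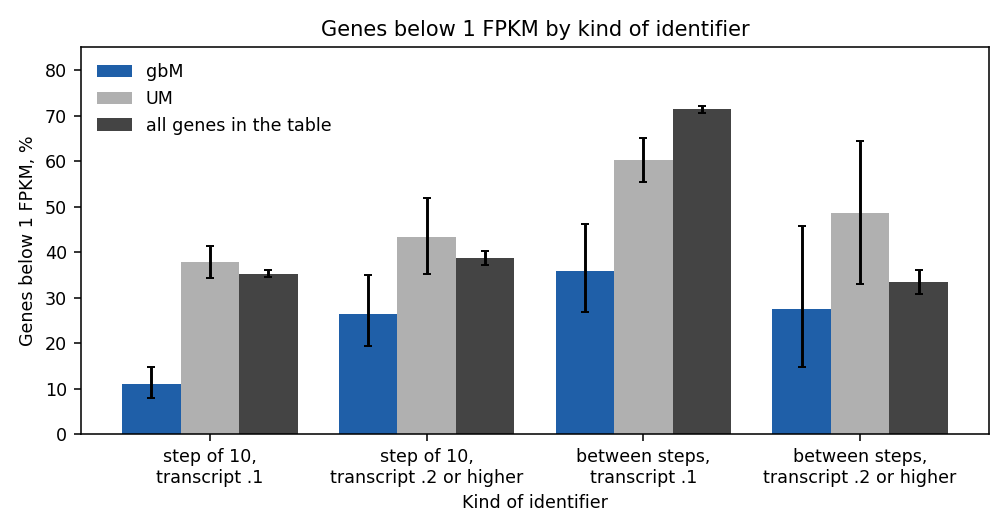
Share of genes below 1 FPKM (vertical axis, %) by kind of identifier (horizontal axis), for gbM genes, UM genes and all genes in the table; bars are 95% Wilson intervals over genes. The gbM bar is lowest in every kind and is 11.0% for numbers in steps of 10 entered by transcript 1.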

How the data were processed

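Leaf RNA of B. distachyon Bd21 was sequenced as 1 stranded library. The authors deposited 1 FPKM value per gene; the submitters' processing notes name Trimmomatic 0.32, TopHat2 2.0.13 and Cufflinks 2.2.1, and the table gives neither read counts nor depth. FPKM depends on the annotation, and reads shared between near-identical genes can be split between them. Methylation classes came from the study's gene classification, of which only the first part was used. Identifiers were joined after dropping the transcript suffix, and all 1999 classified genes matched. Genes were ordered by identifier number, and the nearest gene on each side was its neighbour. No test was run, since there was 1 library and genes are not replicates; shares carry Wilson intervals and medians order-statistic intervals. The choice of low gbM genes, the count at 0 and the order of neighbours were tested on 20 simulated tables with known answers (Python 3.11.15, pandas 2.3.3, SciPy 1.17.1). The joining of classes, the bins, runs and intervals, and the comparisons by transcript and identifier number were not tested in this way.

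The genes and comparisons were chosen with earlier results of these data known. Named genes were the 5 nearest to the threshold on each side, the 5 low gbM genes with the most expressed neighbours (of all, and of those at 0; mean log2(FPKM + 1) of both neighbours), the longest run of adjacent members and members off chromosome 1; the other adjacent pairs were named after their values were seen. Rules on gene length and function could not be applied, as the files used hold no coordinates or gene names. The comparisons by transcript and identifier number were added after seeing the data.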

Additional observations from a re-analysis of the deposited data

How the results depend on the processing

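The share of gbM genes below the threshold (19.1%) was 12.4% at 0.1 FPKM and 26.0% at 2 FPKM, 8.95% with genes at 0 left out and 15.1% with identifiers in steps of 10 only. The share of low gbM genes at 0 (58.3%) was 67.7% at 0.5 FPKM and 42.9% at 2 FPKM, as the construction of the group requires. With genes at 0 left out, 46.7% of low gbM genes had a nearest gene below 1 FPKM, against 35.8% of the other gbM genes, and the median neighbour was 4.87 FPKM, against 5.76. As a mean of log2(FPKM + 1) turned back to FPKM, neighbours gave 3.94 for low gbM genes and 4.01 for the other gbM genes. Entry by another transcript was 46.3% of low gbM genes, against 22.8%, in steps of 10 only, and a number between steps 47.8%, against 16.8%, with transcript 1 only; these last alternatives were added after seeing the data. The remaining 26 of 37 alternatives gave values within the intervals. Some of these could not or did not change a value, so the count overstates stability. Taking the highest entry of a gene could change nothing, as no gene had more than 1. Taking neighbours among classified genes only gave the same 68.5% and 2.48 FPKM. Alternatives needing coordinates (overlapping genes, locus length) were not run. No paired analysis was possible because there was 1 library. With no fragment counts per gene, what a listed 0 means is limited, and the classified stretch limits every share to part of chromosome 1.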

Other observations

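Within the classified stretch 8 genes of the table had no class, with listed values between 0 and 18.7 FPKM. In Brassica rapa, analysed the same way from 1 leaf library, the part of the classification used held 3 gbM genes, at 0.666, 3.53 and 21.3 FPKM, and 947 of 1920 UM genes (49.3%) were below 1 FPKM. In the B. distachyon table, values above 0 were written with more than 6 digits for 17.2% of genes entered by transcript 2 or a higher number and for 3.94% of genes entered by transcript 1. The same held for 1 of the 45 low gbM genes above 0 (2.22%) and for 59 of the 458 other gbM genes (12.9%). The share over all genes above 0 was not computed, and 1 gene is too few for a comparison. Whether values with more than 6 digits are sums over transcripts was not tested.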
